A study of Mus musculus with 2 samples.

Results

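Genes of the mitochondrial ribosomal proteins were described in germinal center B cells of the mouse spleen. Members were the genes whose symbol starts with Mrpl or Mrps followed by a number and that reached 50 UMIs (unique molecular identifiers, each the mark of 1 captured transcript) over both libraries. All 78 genes with such a symbol reached the limit, of 30905 genes listed and 11248 genes that reached 50 UMIs. Mrpl53, with 51 UMIs, stood just inside the limit, and no matching gene lay below it. By symbol 49 members belong to the large subunit and 29 to the small subunit.

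The study sequenced the 3′ ends of transcripts of single cells (10x Genomics droplets, version 3 chemistry) in 1 group with 2 libraries. Both libraries hold germinal center B cells sorted from spleens of 8-week-old C57BL/6J mice immunized with SRBC, the labels' abbreviation for the immunogen. No untreated group, other genotype or other cell type was analysed here, and every comparison is between classes of cells within each library. Nothing in the labels tells if different animals gave the libraries. Each class is compared within its library, so that p-values measure only how far a class difference varies between these 2 libraries. That variation may be technical.

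Mitochondria carry their own ribosome, the mitoribosome, whose RNAs come from the mitochondrial genome and whose proteins are all encoded in the nucleus and imported. It makes the few core subunits of the respiratory chain and of ATP synthase that the mitochondrial genome encodes. In a germinal center, B cells divide and mutate their antibody genes in the dark zone, and compete for antigen and T cell help in the light zone, where help induces the growth regulator Myc before cells divide again.

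Cells below 500 genes or 1000 UMIs, or above 20% of UMIs from mitochondrially encoded genes, were left out, which kept 5142 cells in library 1 and 3526 in library 2, with median depths of 8183.5 and 8243 UMIs. All 11 germinal center B cell markers (among them Bcl6 and S1pr2) were detected in 48.9% or more of the cells of each library. None of the T cell, natural killer cell, macrophage, neutrophil, dendritic cell, erythroid, stromal or platelet markers was detected in more than 0.596% of cells. The libraries share 22 barcodes, 9 of them among kept cells. The doublet caller marked 0 cells in either library, a rate at which it has not worked, so that doublets were not removed.

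In all kept cells together the members made up 6250 CPM (UMIs per 1000000 UMIs of the cells summed) in library 1 and 6878 in library 2. Large subunit genes by symbol summed to 4121 and 4511 CPM and small subunit genes to 2130 and 2367, which is a ratio of large over small of 1.93 in library 1 and 1.91 in library 2. Position in the mammalian mitoribosome differs from the symbol for 3 members: Mrps18a and Mrps30 sit in the large subunit, and Mrps36 in neither, since its product is now known as a subunit of the 2-oxoglutarate dehydrogenase complex. By position 51 members are large subunit genes and 26 small subunit genes, and the ratio was 2.33 and 2.29. Each cell thinned to 3400 UMIs held a median of 17 member UMIs in library 1 and 19 in library 2, and none of the 4677 and 3135 cells deep enough for thinning lacked a member UMI.

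Mrpl18, a protein of the central protuberance of the large subunit, was the most abundant member at 253 CPM in library 1 and 301 in library 2. Mrpl12, which with Mrpl10 builds the stalk of the large subunit, followed at 228 and 267, and Mrpl54 at 222 and 206. Mrps7, Mrpl20, Mrps18a, Mrpl51 and Mrps24 completed the highest 8, each between 152 and 201 CPM. The lowest members were Mrpl53 at 0.560 and 0.436, then Mrps2, Mrps6, Mrps27 and Mrpl47, the last at 17.9 and 20.5. The median member stood at 70.5 CPM, and the highest 10 held 28.7% of all member UMIs. Mrpl53 shares 88.0% of its exon bases with the gene Gm42688 on the same strand, the only member above 50%, so that its low count is uncertain.

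**Figure D1:**
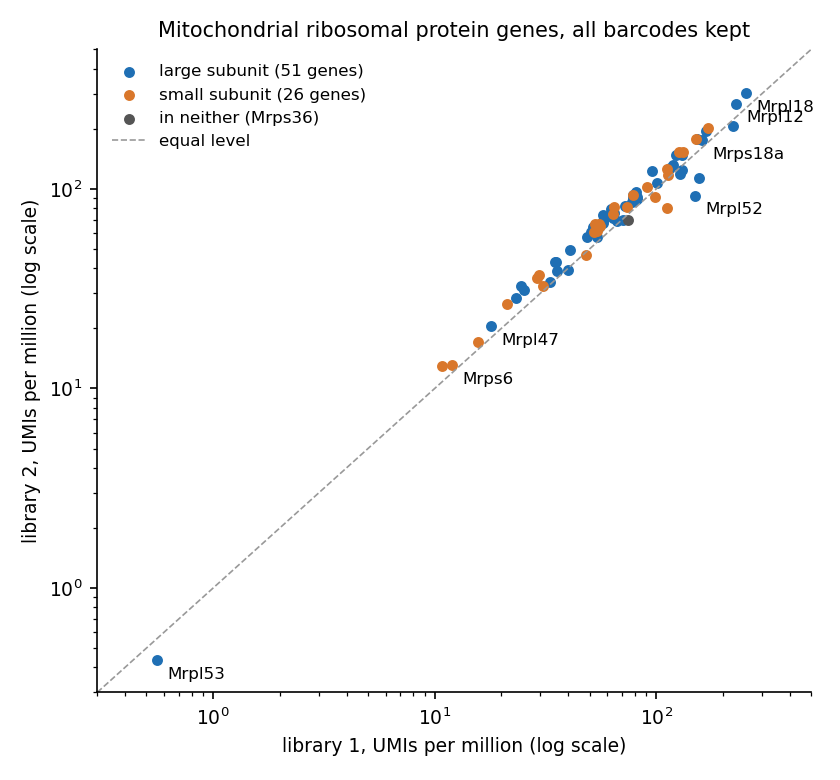
Level of each of the 78 members in CPM in library 1 (horizontal axis) and library 2 (vertical axis), both on log scales, with colours for the position in the mitoribosome and a dashed line of equal levels. Most members lie above the line, Mrpl52 lies below it, and Mrpl53 stands apart at under 1 CPM.

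The order of the members was close between the libraries (Spearman's rho 0.979 across the 78 genes, a description over genes that share both libraries). Of the members, 66 were lower and 12 higher in library 1, with a median log2 difference of -0.21 (library 1 over library 2) and a range of -0.42 to 0.70. Mrpl52 had 150 CPM in library 1 and 92.5 in library 2, Mrps21 had 112 and 79.9, and Mrpl33 had 156 and 114. The longest coding transcript had a median of 698 bases for the 12 members higher in library 1 and 1407.5 bases for the 66 others. With 1 group of 2 libraries this difference was not tested. Across all 78 members Spearman's rho between that length and the log2 difference was only -0.21, again a description. Per kilobase of the longest coding transcript the order changed, and 5 members stood in the top 10 on both scales.

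Cells were divided along 4 lines that do not use the members. On counts thinned to 3400 UMIs, the light zone gate held cells in which Cd83 or Cd86 was detected (1 UMI or more) but not Cxcr4, and the dark zone gate cells with Cxcr4 but neither of the others. Within the light zone gate, Myc-detected cells had at least 1 thinned Myc UMI. Isotypes needed at least 5 heavy chain UMIs with 80% from Ighg genes (IgG) or from Ighm and Ighd (IgM). Phases came from scores over S and G2/M genes on thinned counts. Of the phase calls, 88.3% in each library were the same with another random seed, and 13.2% and 11.5% of cells lay near a boundary. UMIs were summed per library and class and tested with edgeR's quasi-likelihood test with the library as a block. A gene was called at a Benjamini-Hochberg adjusted p under 0.05 over all genes tested. Every log2 fold change below has the first-named class on top, with its standard error (SE).

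The members' share of a cell's RNA moved with the depth of the cell and with its mitochondrial share, which bears on every comparison. In the lowest of 10 depth groups the members summed to 4103 CPM in library 1 and 4789 in library 2. In the highest they summed to 8080 and 8681, which is 1.97 times and 1.81 times the lowest. The median mitochondrial share was 15.8% and 14.8% in the lowest group and 6.28% and 6.201% in the highest. With mitochondrially encoded UMIs taken out of the totals, the values were 4790 and 5519 in the lowest group and 8655 and 9291 in the highest. Cytosolic ribosomal protein genes went the same way, at 179297 and 174936 CPM in the lowest group and 268056 and 234146 in the highest. Depth can stand for RNA per cell or for how well a cell was captured, and these cannot be told apart here.

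**Figure D2:**
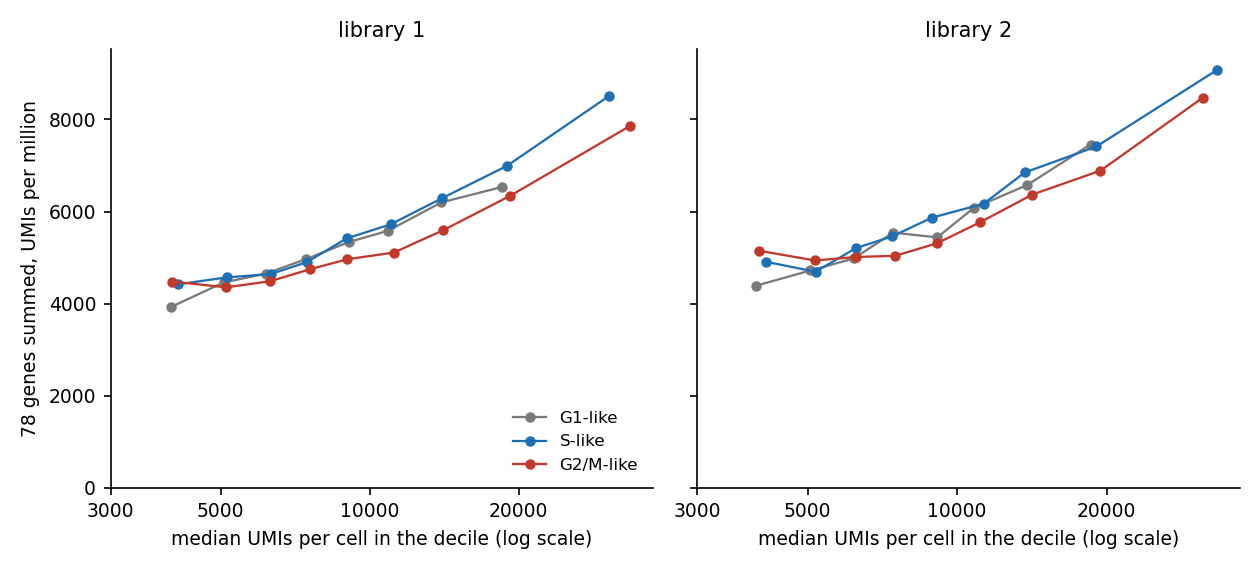
Summed level of the 78 members in CPM against the median depth of each depth decile (log scale), by phase and library, for deciles with at least 20 cells of a phase. The 3 phases lie close together at a given depth, and the level in all of them climbs with depth, to 7860 or more in the deepest S-like and G2/M-like groups of both libraries.

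S-like cells held more member CPM than G1-like cells, and so did G2/M-like cells. The members summed to 5144 and 5621 CPM in G1-like cells of libraries 1 and 2, to 6731 and 7301 in S-like cells, and to 6339 and 6982 in G2/M-like cells, with no overlap between G1-like cells and either other phase. In S-like cells 66 of 77 members tested were called higher than in G1-like cells, where 30.6% of all genes were called higher, and the median log2 fold change was 0.43, against -0.02 over all genes. None was called lower by edgeR, nor at an unadjusted p under 0.05, nor by DESeq2, where 29.6% of all genes were called lower. In G2/M-like cells 60 of 77 were called higher and 1 lower, where 29.1% and 29.2% of all genes were called higher and lower. Their median log2 fold change was 0.31. Both contrasts share the G1-like cells, and 57 members were called higher in both. The share of all genes called higher in both is not given here, so that this count is a description only.

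Depth moved with phase. Median depth was 5610 and 5812 UMIs in G1-like cells, 9627 and 10341 in S-like cells, and 10861 and 10722 in G2/M-like cells. When cells were drawn to equal numbers in bins of depth and mitochondrial share, a choice made after seeing the data, the median member log2 fold change was 0.01 for S-like cells (638 and 426 cells of each class in libraries 1 and 2) and -0.04 for G2/M-like cells (816 and 490). In these matched cells 14 members were called higher and 10 lower in S-like cells, and 11 higher and 15 lower in G2/M-like cells. Among all genes in matched cells, 17.8% were called higher and 15.1% lower in S-like cells, and 21.1% higher and 20.7% lower in G2/M-like cells. The members' shares were near these or below them, so that the counts of matched calls are no result about the set. Within a depth decile the members' sum in S-like cells was between 0.986 and 1.12 times that in G1-like cells in library 1, and between 0.985 and 1.12 times in library 2, and stood above it in 6 and 5 of the 8 deciles compared. In G2/M-like cells it was between 0.902 and 1.14 times that in G1-like cells in library 1 and between 0.909 and 1.17 times in library 2, and stood above it in 1 and 3 of 8 deciles. The rise of the whole set with phase was thus not seen between cells of equal depth and mitochondrial share, and the single members described next are given for their own values.

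G1-like cells also held more RNA of 8 markers of naive or memory B cells, which summed to 849 and 1043 CPM in G1-like cells, 372 and 429 in S-like cells, and 348 and 408 in G2/M-like cells. The 11 germinal center B cell markers were higher in G1-like cells too, at 5239 and 5346 CPM. They summed to 3690 and 3812 in S-like cells, and to 3754 and 3856 in G2/M-like cells. The 5 macrophage markers summed to 48.9 and 9.795 in G1-like cells and to 1.27 or less in the other phases. The part of any of these in the phase result was not tested. The exception is that leaving out cells with a UMI of another lineage's marker kept all 66 S calls and 59 of the 60 G2/M calls.

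**Figure D3:**
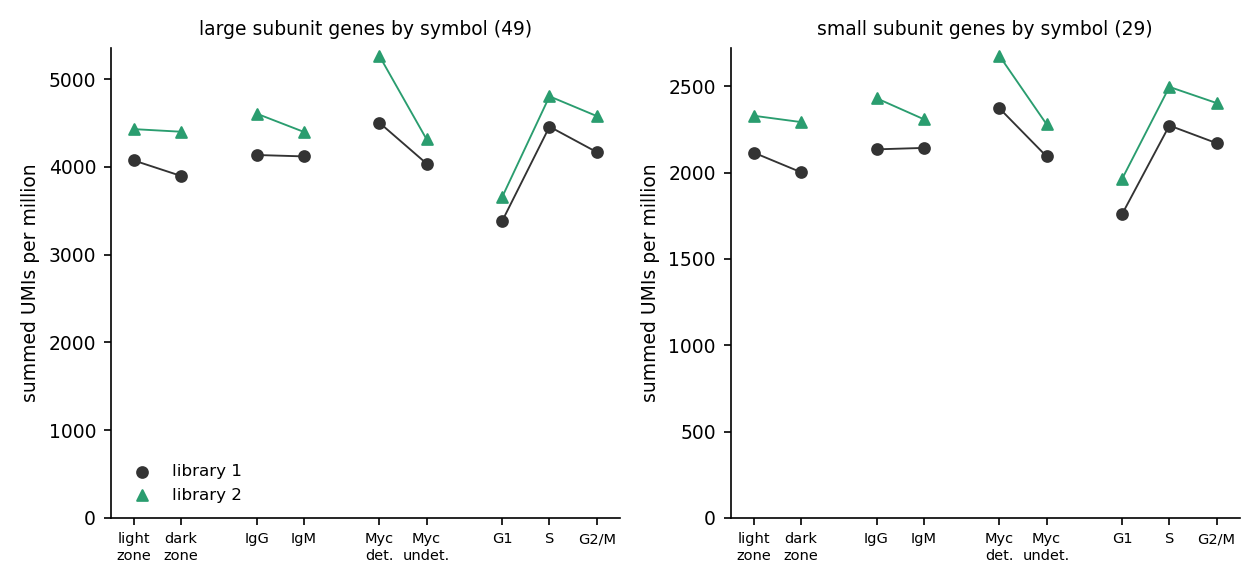
Summed CPM of the 49 large subunit genes (left) and 29 small subunit genes (right) in each class of cells, with circles for library 1 and triangles for library 2 and axes from 0. In both panels and both libraries G1-like cells are lowest and Myc-detected light zone cells highest.

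Mrps18a showed the widest difference between G2/M-like and G1-like cells of all members. It is one of the vertebrate genes related to the bacterial small subunit protein S18, and its product sits in the large subunit. Mrps18a had 196 and 212 CPM in G2/M-like cells of libraries 1 and 2, against 85.9 and 95.2 in G1-like cells. Both G2/M-like values stood above both G1-like values (log2 fold change 1.22 ± 0.05 SE, edgeR adjusted p = 3.3e-114). In S-like cells it had 134 and 148 (0.71 ± 0.06, adjusted p = 3.4e-32, against G1-like cells). Matched on depth and mitochondrial share, it had 177 and 204 in G2/M-like cells and 90.2 and 98.1 in G1-like cells (0.98 ± 0.06, adjusted p = 3.0e-13). The gene lies on chromosome 17 (chr17:46110986-46128910, plus strand, GRCm38) and shares no exon bases with another gene.

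The paralogs did not follow it. Mrps18b, whose product sits in the small subunit, had 59.2 and 76.0 CPM in G2/M-like cells and 63.3 and 79.8 in G1-like cells (-0.04 ± 0.06, adjusted p = 0.58). In matched cells it was lower, at 48.3 and 63.5 in G2/M-like cells and 67.5 and 83.5 in G1-like cells (-0.47 ± 0.08, adjusted p = 4.6e-05). Mrps18c, the copy in the place of the bacterial protein, had 103 and 91.4 in G2/M-like cells and 77.6 and 77.3 in G1-like cells (0.38 ± 0.06, adjusted p = 1.4e-10). In matched cells Mrps18c was not called (0.10 ± 0.07, adjusted p = 0.30). The 3 paralogs thus differed in their G2/M values, with Mrps18a called higher, Mrps18b called lower and Mrps18c not called between matched cells.

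Among other large subunit genes, Mrpl51 had 175 and 205 CPM in G2/M-like cells and 90.04 and 107 in G1-like cells (0.99 ± 0.05, edgeR adjusted p = 4.0e-78). It stayed higher in matched cells, at 141 and 183 against 90.7 and 115 (0.63 ± 0.07, adjusted p = 5.2e-09). Mrpl18 led the S-like contrast, with 295 and 347 in S-like cells and 143 and 173 in G1-like cells (1.09 ± 0.05, adjusted p = 1.05e-101). In matched cells it had 253 and 296 in S-like cells and 157 and 178 in G1-like cells (0.72 ± 0.06, adjusted p = 1.9e-17). Mrpl28, a bacterial-type protein, had 144 and 162 in S-like cells and 81.9 and 93.8 in G1-like cells (0.87 ± 0.06, adjusted p = 4.0e-48), and was called in matched cells as well (0.62 ± 0.07, adjusted p = 1.1e-10). For these 3 genes no library of the G1-like class reached a library of the other class.

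Mrpl12 of the stalk had 273 and 301 CPM in S-like cells and 166 and 180 in G1-like cells (0.79 ± 0.05, edgeR adjusted p = 3.6e-56), and 0.32 ± 0.06 in matched cells (adjusted p = 9.7e-06). Its stalk partner Mrpl10 had 39.6 and 38.9 in S-like cells and 34.4 and 32.3 in G1-like cells (0.29 ± 0.09, adjusted p = 0.0022), and was not called in matched cells. The other leading members in S-like cells were Mrps22 (0.97), Mrps6 (0.89), Mrpl42 (0.85), Mrpl13 (0.79) and Mrps5 (0.76), all in log2 fold change. Of these only Mrpl42 and Mrpl13 were also called higher in matched S-like cells. The other leading members in G2/M-like cells were Mrps22 (0.90), Mrpl18 (0.89), Mrpl28 (0.76), Mrpl27 (0.71), Mrpl39 (0.64) and Mrpl42 (0.61), of which Mrpl18, Mrpl28 and Mrpl27 were called in matched cells.

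Mrpl19 was the one member called lower in G2/M-like cells, at 57.6 and 65.4 CPM against 68.5 and 79.0 in G1-like cells (-0.22 ± 0.06, edgeR adjusted p = 0.0011). In matched G2/M-like cells Mrpl36 was lowest relative to G1-like cells, at 42.1 and 57.1 against 62.3 and 83.7 (-0.58 ± 0.09, adjusted p = 2.9e-06). Mrps28 followed at 32.1 and 45.5 against 45.6 and 59.7 (-0.47 ± 0.10, adjusted p = 0.00024), although it had been called higher in all G2/M-like cells (0.30 ± 0.07). In all, 6 members called higher in all S-like cells were called lower in matched ones, and likewise 6 in G2/M-like cells. In matched cells 7 members were called higher in both phases, namely Mrpl13, Mrpl18, Mrpl27, Mrpl28, Mrpl51, Mrps18a and Mrps26. Another 5 were called lower in both, namely Mrpl11, Mrpl36, Mrpl52, Mrps16 and Mrps33. Both contrasts use G1-like cells, and the share of all genes called in both is not given here. These lists are thus no result about the set.

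**Figure D4:**
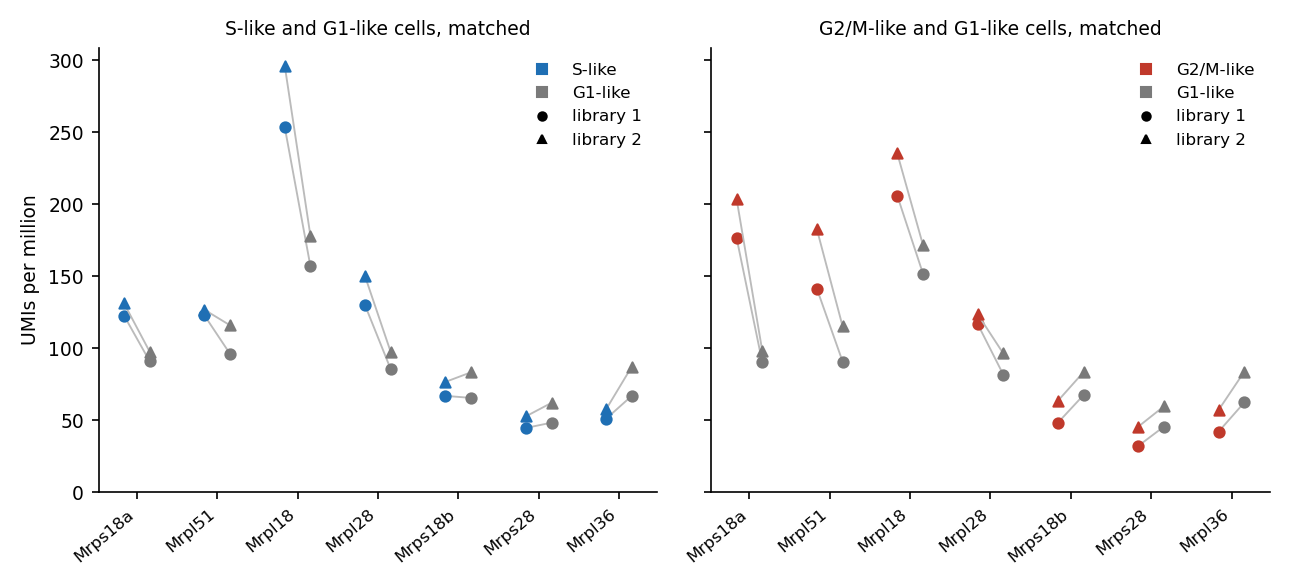
CPM of 7 members in S-like (left, blue) and G2/M-like (right, red) cells beside G1-like cells (grey) drawn to the same depth and mitochondrial share, with circles for library 1 and triangles for library 2 joined by lines. Mrps18a in G2/M-like cells and Mrpl18 in S-like cells show the widest gaps upward, and Mrps18b, Mrps28 and Mrpl36 are lower in G2/M-like than in G1-like cells in both libraries.

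Myc-detected light zone cells held more member CPM than Myc-undetected ones. The members summed to 6876 and 7941 CPM in the 112 and 111 Myc-detected cells of libraries 1 and 2, and to 6130 and 6593 in the 1559 and 1046 Myc-undetected cells. Of 77 members tested, 24 were called higher, where 10.3% of all genes were called higher. None was called lower by edgeR, nor at an unadjusted p under 0.05, nor by DESeq2, where 6.36% of all genes were called lower. The median log2 fold change was 0.28 over the members and -0.01 over all genes, and 70 of the 77 were above 0.

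The count of Myc calls rests on few cells and on the test. DESeq2 called 2 members higher. With another seed for thinning, which draws other Myc-detected cells, 7 were called and the median was 0.17. Median depth was 8312 and 11509 UMIs in Myc-detected cells, against 8133 and 8538 in Myc-undetected cells, and matching on depth and mitochondrial share left 8 members called, with a median of 0.17. In matched cells 6.74% of all genes were called higher. The naive or memory B cell markers summed to 623 and 756 CPM in Myc-detected cells and to 564 and 662 in undetected ones. The germinal center B cell markers summed to 3685 and 3232 in Myc-detected cells and to 4237 and 4461 in undetected ones. The part of either in the Myc result was not tested.

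By phase the difference in the members' sum had the same sign in all 6 pairs of a phase and a library. In S-like cells it was 7438 and 8045 CPM in Myc-detected cells and 6567 and 6943 in undetected ones. In G2/M-like cells it was 6975 and 8537 in Myc-detected cells and 6332 and 6700 in undetected ones. In G1-like cells it was 5799 and 6007 in Myc-detected cells and 4982 and 5795 in undetected ones, with the wider gap in library 1. These pairs were not matched on depth or mitochondrial share. Median depth in G1-like cells was 7187.5 and 6832 UMIs in Myc-detected and 5655 and 6285 in undetected cells. It was 9367 and 13380 against 8488 and 8577 in S-like cells. In G2/M-like cells it was 11462.5 and 14924.5 against 11559 and 10771.5. By the number of thinned Myc UMIs, the members summed to 6130 and 6593 CPM with 0 UMIs, to 6735 and 8190 with 1 (89 and 79 cells), to 7528 and 7590 with 2 (16 and 24 cells) and to 6966 and 5904 with 3 or more (7 and 8 cells). Library 1 climbed up to 2 UMIs and library 2 was highest at 1, with few cells behind the upper classes.

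Mrps6, a small subunit protein with a bacterial relative, had 18.7 and 29.1 CPM in Myc-detected cells and 12.7 and 11.8 in Myc-undetected cells (0.99 ± 0.22, edgeR adjusted p = 0.00051). The gap was wider in library 2, and Mrps6 was not called in matched cells (0.64 ± 0.28, adjusted p = 0.13). It shares 19.9% of its exon bases on the same strand with Slc5a3 and Gm49711. Mrpl50, a mitochondria-specific protein of the large subunit, had 36.0 and 65.3 in Myc-detected cells and 23.4 and 32.2 in undetected ones (0.88 ± 0.16, adjusted p = 1.2e-05). It was called in matched cells too (0.57 ± 0.19, adjusted p = 0.034). For both genes the lower Myc-detected library stood above the higher undetected one.

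The other leading members in Myc-detected cells were Mrpl24 (0.59), Mrpl38 (0.57), Mrpl47 (0.54), Mrps30 (0.54), Mrpl2 (0.51) and Mrpl36 (0.50), in log2 fold change, and 4 of these 6 were not called in matched cells, the exceptions being Mrpl24 and Mrpl38. Mrpl12 had 252 and 346 CPM in Myc-detected cells and 224 and 250 in undetected ones (0.35 ± 0.10, edgeR adjusted p = 0.0058), and 0.42 ± 0.10 in matched cells (adjusted p = 0.00082). In human cells its protein also binds the mitochondrial RNA polymerase. Mrps18b was called higher, at 79.4 and 116 against 66.7 and 83.6 (0.40 ± 0.12, adjusted p = 0.015), and in matched cells (0.47 ± 0.15, adjusted p = 0.017). Mrps18a at 127 and 152 against 149 and 157 (-0.11 ± 0.11, adjusted p = 0.59) and Mrps18c at 92.8 and 68.8 against 92.3 and 83.6 (-0.10 ± 0.13, adjusted p = 0.66) were not called. Bacterial-type members were called higher in 18 of 46 cases and mitochondria-specific ones in 5 of 30. Among all genes 10.3% were called higher, and these are given as counts only. Median log2 fold changes of the 2 kinds were 0.30 and 0.26. They were 0.23 and 0.26 in library 1, and 0.40 and 0.29 in library 2.

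**Figure D5:**
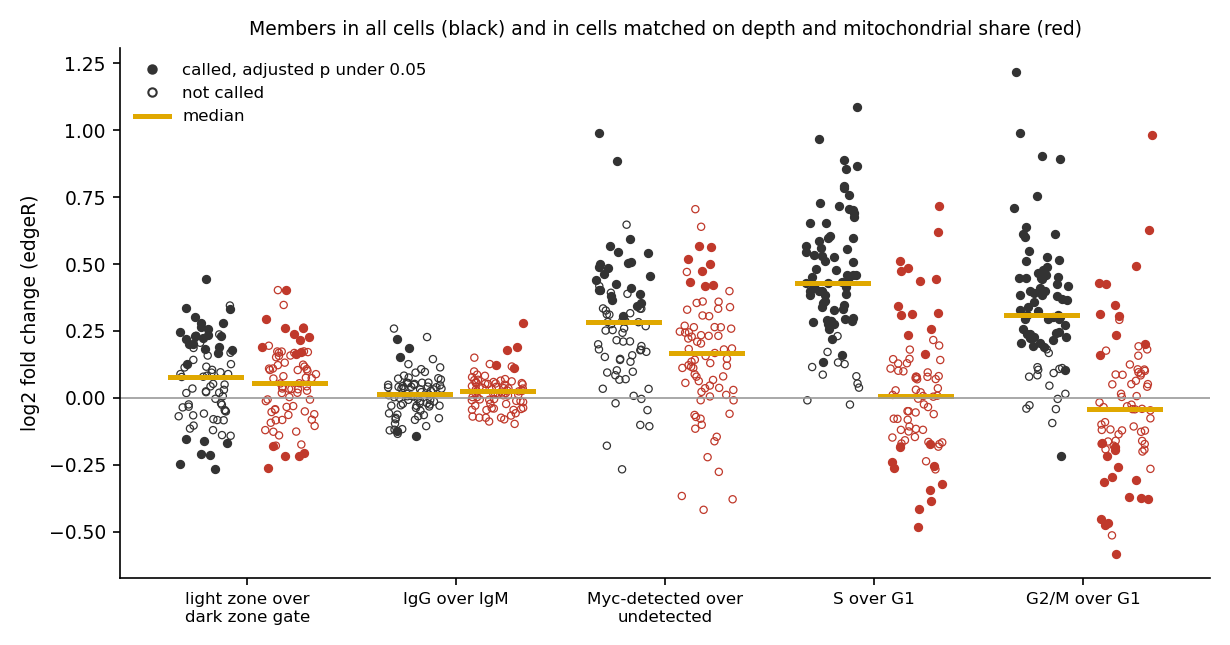
Log2 fold change of each member tested in the 5 comparisons, in all cells (black) and in cells matched on depth and mitochondrial share (red), with filled points for calls at an adjusted p under 0.05 and yellow bars for medians. In the S and G2/M comparisons the matched medians lie at 0.01 and -0.04, against 0.43 and 0.31 in all cells, while the spread of the points stays wide.

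Promoters from RefSeq (build GRCm38.p6) are shown for some of the members named in the Myc and phase results. Of the 78 members, 69 had a promoter entry, with 75 promoters of 300 bases in all. Shown are the 250 bases before the annotated start. Capitals mark matches on either strand to motifs searched by their letters, which were CACGTG (E-box, the element bound by Myc), GCATGCG (NRF1), CCGGAAG (ETS), AAGATGGCG (YY1), CCAAT (NF-Y) and TTTGAA (the cell cycle homology region). The first 4 are the members with the largest called changes in the Myc and zone comparisons among those with a single entry, at chr16:92058086-92058335 on the plus strand (Mrps6), chr4:49521084-49521333 on the minus strand (Mrpl50), chr3:87919294-87919543 on the plus strand (Mrpl24) and chr3:32736756-32737005 on the minus strand (Mrpl47).
Mrps6: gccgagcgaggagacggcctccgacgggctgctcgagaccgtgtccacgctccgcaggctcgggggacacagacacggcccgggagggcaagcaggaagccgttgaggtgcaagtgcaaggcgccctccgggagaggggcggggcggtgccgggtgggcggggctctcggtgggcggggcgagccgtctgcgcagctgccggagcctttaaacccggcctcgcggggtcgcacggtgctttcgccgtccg
Mrpl50: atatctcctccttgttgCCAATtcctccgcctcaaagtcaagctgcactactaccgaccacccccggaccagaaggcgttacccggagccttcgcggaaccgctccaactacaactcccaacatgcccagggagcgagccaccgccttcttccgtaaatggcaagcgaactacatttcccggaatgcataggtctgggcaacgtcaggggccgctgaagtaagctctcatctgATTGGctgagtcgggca
Mrpl24: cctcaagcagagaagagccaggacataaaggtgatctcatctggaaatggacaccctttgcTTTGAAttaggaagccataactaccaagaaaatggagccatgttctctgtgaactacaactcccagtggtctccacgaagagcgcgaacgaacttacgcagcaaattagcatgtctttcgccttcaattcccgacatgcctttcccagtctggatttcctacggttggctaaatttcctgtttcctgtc
Mrpl47: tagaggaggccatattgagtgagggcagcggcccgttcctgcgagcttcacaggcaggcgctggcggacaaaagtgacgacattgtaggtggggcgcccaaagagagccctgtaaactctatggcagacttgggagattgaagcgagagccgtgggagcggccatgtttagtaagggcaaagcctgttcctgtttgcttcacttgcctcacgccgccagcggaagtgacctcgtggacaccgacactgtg

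The next 4 had the largest log2 fold changes in G2/M-like cells matched on depth and mitochondrial share, among members with a single entry called higher in both phases there, and were chosen after these values were seen. They lie at chr17:46110754-46111003 on the plus strand (Mrps18a), chr6:125191950-125192199 on the plus strand (Mrpl51), chr11:94653541-94653790 on the plus strand (Mrpl27) and chr17:26123253-26123502 on the plus strand (Mrpl28). In Mrpl28 a CCAAT and its reverse complement overlap.
Mrps18a: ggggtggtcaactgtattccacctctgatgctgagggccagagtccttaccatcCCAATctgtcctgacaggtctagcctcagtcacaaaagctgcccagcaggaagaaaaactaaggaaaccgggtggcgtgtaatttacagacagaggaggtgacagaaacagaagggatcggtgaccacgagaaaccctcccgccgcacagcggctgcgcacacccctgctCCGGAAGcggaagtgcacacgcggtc
Mrpl51: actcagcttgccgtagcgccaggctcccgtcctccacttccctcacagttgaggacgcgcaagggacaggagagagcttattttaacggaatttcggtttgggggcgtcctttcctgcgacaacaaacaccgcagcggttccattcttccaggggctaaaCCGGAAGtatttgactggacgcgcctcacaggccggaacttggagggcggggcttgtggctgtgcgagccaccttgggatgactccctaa
Mrpl27: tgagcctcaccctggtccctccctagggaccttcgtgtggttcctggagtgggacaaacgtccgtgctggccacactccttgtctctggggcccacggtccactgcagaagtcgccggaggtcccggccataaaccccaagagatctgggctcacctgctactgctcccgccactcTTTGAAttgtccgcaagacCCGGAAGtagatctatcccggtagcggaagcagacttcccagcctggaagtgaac
Mrpl28: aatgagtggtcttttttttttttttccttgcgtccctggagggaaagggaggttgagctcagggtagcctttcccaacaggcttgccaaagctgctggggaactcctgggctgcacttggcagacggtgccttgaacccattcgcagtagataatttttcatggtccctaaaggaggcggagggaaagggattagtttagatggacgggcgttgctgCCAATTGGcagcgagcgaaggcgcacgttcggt

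Over the full 300 bases the ETS letters CCGGAAG were present in 26 of the 75 member promoters (34.7%), in 8.86% of all 32851 promoters and in 19.3% of the 10951 promoters of genes with at least 50 UMIs. AAGATGGCG was present in 10.7% of member promoters, 1.40% of all and 3.38% of expressed genes' promoters. GCATGCG was present in 10.7%, 3.58% and 6.81%, in that order. CACGTG was present in 9.33%, 7.15% and 10.5%, and TTTGAA in 17.3%, 17.9% and 12.5%. CCAAT was present in 30 of the 75 member promoters, in 37.4% of all and in 38.7% of expressed genes' promoters. None of the 4 Myc and zone promoters shown held CACGTG, and 3 of the 4 phase promoters held the ETS letters. Of the other leading members in Myc-detected cells, Mrpl2 and Mrpl36 held CACGTG within the 300 bases and Mrps30 did not. These are matches of letters and not measured binding.

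Between zone gates the members' sum differed little and single members moved in both directions. The members summed to 6189 and 6760 CPM in the light zone gate (1671 and 1157 cells) and to 5899 and 6693 in the dark zone gate (759 and 490 cells). Light zone gate cells had 21 of 77 members called higher and 7 called lower, where 15.5% of all genes were called higher and 13.9% lower. The median log2 fold change was 0.08, with 0.11 in library 1 and 0.03 in library 2. DESeq2 called 1 member higher and 1 lower. In cells matched on depth and mitochondrial share 10 were called higher, all 10 among the 21, and 5 lower, where 10.9% of all genes were called higher and 9.85% lower. The naive or memory B cell markers summed to 569 and 673 CPM in the light zone gate and to 313 and 372 in the dark zone gate. The germinal center B cell markers summed to 4193 and 4309 in the light zone gate, and to 3961 and 3947 in the dark. The part of either in the zone result was not tested.

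Mrpl3, a bacterial-type protein of the large subunit, had 65.2 and 74.7 CPM in the light zone gate and 46.1 and 56.7 in the dark zone gate (0.44 ± 0.07, edgeR adjusted p = 2.2e-09). The groups did not overlap, and matched cells gave 0.40 ± 0.08 (adjusted p = 2.3e-05). Mrpl36 had 68.7 and 81.4 in the light zone gate and 51.9 and 67.3 in the dark zone gate (0.33 ± 0.07, adjusted p = 4.8e-06). Mrps36 had 78.2 and 78.8 in the light zone gate and 64.4 and 61.6 in the dark zone gate (0.30 ± 0.06, adjusted p = 2.8e-05). The other leading members higher in the light zone gate were Mrps27 (0.33), Mrps18b (0.28), Mrpl41 (0.28), Mrpl55 (0.27) and Mrpl24 (0.26), in log2 fold change. Counting calls, 13 members were called higher both in the light zone gate and in Myc-detected cells within it. The 2 comparisons share the light zone gate cells, and the share of all genes called in both is not given here. In matched cells 2 members, Mrpl19 and Mrps18b, were called higher in both.

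Mrps18a was the lowest relative to the dark zone gate, at 148 and 157 CPM in the light zone gate and 173 and 191 in the dark zone gate (-0.27 ± 0.05, edgeR adjusted p = 6.2e-07). The gates differ in phase, with 36.1% and 37.5% G2/M-like cells in the light zone gate and 59.7% and 57.1% in the dark zone gate. With cells drawn to equal phase shares Mrps18a was at -0.09 ± 0.05 (adjusted p = 0.22), no longer called. The other members called lower were Mrps11 (-0.25), Mrpl27 (-0.21), Mrps26 (-0.21), Mrpl57 (-0.17), Mrpl28 (-0.16) and Mrpl49 (-0.15), and 2 of the 7 calls were left with equal phase shares. Of the 21 members called higher, 19 were also called with equal phase shares.

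IgG and IgM cells differed in few members. The members summed to 6270 and 7038 CPM in IgG cells (2192 and 1437 cells) and to 6262 and 6708 in IgM cells (1775 and 1323 cells). Of 78 members tested, 3 were called higher and 2 lower in IgG cells, where 5.87% of all genes were called higher and 8.17% lower, and the median log2 fold change was 0.01. It was -0.03 in library 1 and 0.05 in library 2. The naive or memory B cell markers summed to 305 and 349 CPM in IgG cells and to 574 and 671 in IgM cells. The germinal center B cell markers summed to 3917 and 3930 in IgG cells and to 4063 and 4263 in IgM cells. The part of either in the isotype result was not tested. Mrps18a had 177 and 192 in IgG cells and 149 and 164 in IgM cells (0.22 ± 0.04, edgeR adjusted p = 6.4e-06), with 0.18 ± 0.03 at equal phase shares (adjusted p = 0.00012) and 0.19 ± 0.03 in matched cells. The other calls were Mrps10 (0.18) and Mrps34 (0.15) higher, and Mrps36 (-0.14) and Mrps33 (-0.12) lower. All 3 higher calls were also made with the stricter limit of 10 heavy chain UMIs and 90%, where 9 members were called higher. DESeq2 called 1 member higher and 0 lower, also at an unadjusted p under 0.05.

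Large and small subunit genes showed similar medians. The ratio of large over small by symbol lay between 1.86 and 1.97 in the classes of the 5 comparisons in both libraries. Median log2 fold changes of the large and small subunit genes were 0.44 and 0.42 in S-like cells, 0.33 and 0.30 in G2/M-like cells, 0.28 and 0.29 in Myc-detected cells, 0.04 and 0.10 in the light zone gate and 0.01 and 0.03 in IgG cells. With 2 libraries the difference between subunits was not tested.

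The other genes of mitochondrial translation were taken from lists chosen with earlier results of these data known. The list results below are for all cells, not for cells matched on depth and mitochondrial share. Of the 5 mitoribosomal protein genes with other symbols (Dap3, Ptcd3, Chchd1, Aurkaip1 and Gadd45gip1), all 5 were called higher in S-like and in G2/M-like cells, and Ptcd3 alone in Myc-detected cells. The shares of all genes called higher there were 30.6%, 29.1% and 10.3%. Chchd1 had 117 and 114 CPM in S-like cells and 78.7 and 83.2 in G1-like cells (0.59 ± 0.06, edgeR adjusted p = 2.7e-21). Of 30 translation factors and aminoacyl-tRNA synthetases, 11 were called higher and 4 lower in S-like cells, 8 and 3 in G2/M-like cells, and 3 and 1 in the light zone gate. Among all genes 30.6%, 29.1% and 15.5% were called higher in these comparisons, and the list's shares were near them or below. In Myc-detected cells 4 of the 30 were called higher, namely Yars2 (0.86), Gfm1 (0.69), Rars2 (0.66) and Tsfm (0.50), where 10.3% of all genes were called higher.

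Of 23 assembly factors, 5 were called higher in Myc-detected cells, where 10.3% of all genes were called higher. Among the 5 were Mrm3 (0.93), which methylates the large ribosomal RNA, Fastkd2 (0.89), Rpusd4 (0.69) and the GTPase Noa1 (0.63). In S-like cells 8 were called higher and 2 lower, and in G2/M-like cells 3 and 2, where 30.6% and 29.1% of all genes were called higher. Tfb1m, which methylates the small ribosomal RNA, had 8.998 and 9.29 CPM in S-like cells and 4.37 and 4.58 in G1-like cells (1.096 ± 0.21, edgeR adjusted p = 5.0e-07). Of 12 genes that act on mitochondrial DNA or its transcripts, 6 were called higher in S-like, 5 in G2/M-like and 3 in Myc-detected cells. The shares among all genes were 30.6%, 29.1% and 10.3%. Tfam, which packages that DNA, had 73.8 and 79.4 in S-like cells and 48.4 and 64.0 in G1-like cells (0.54 ± 0.07, adjusted p = 9.6e-14).

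The 13 messenger RNAs of the mitochondrial genome, which the mitoribosome translates, did not follow the members. All 13 were called lower in the light zone gate, with a median log2 fold change of -0.14, where 13.9% of all genes were called lower. In Myc-detected cells 6 were called lower, where 6.36% of all genes were, with mt-Co1 at 11700 and 10131 CPM in Myc-detected cells and 13783 and 12936 in undetected ones (-0.27 ± 0.04, edgeR adjusted p = 1.7e-06). In S-like cells 6 were called lower and 1 higher, and in G2/M-like cells 7 and 1, where 29.6% and 29.2% of all genes were called lower. These transcripts make up the mitochondrial share, which also entered the filter on cells. With these UMIs left out of the counts, all 66 S calls, all 60 G2/M calls, all 21 zone calls, 23 of the 24 Myc calls and 2 of the 3 IgG calls of higher members were made again. With a mitochondrial limit of 10%, 51 of the 66, 44 of the 60, 9 of the 21, 8 of the 24 and 2 of the 3 were.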

How the data were processed

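The authors deposited unnormalized UMI counts per gene and barcode for 2 libraries of mouse germinal center B cells. Per the file headers Cell Ranger 3.0.2 wrote them, and the submitters' processing notes name mm10. Neither the annotation nor how cells were called is given in the sources used here. Members and lists were chosen with earlier results of these data known. Total counts were 75121538 UMIs over 8765 barcodes in library 1 and 61874342 over 7868 in library 2. Kept cells had 500 genes, 1000 UMIs and a mitochondrial share of 20% or less. Classes were set on cells thinned to 3400 UMIs, the 10th percentile of depth, which left out 465 and 391 shallower cells, except isotypes. Phases came from scanpy 1.11.5, with members kept out of its control genes. Sums of unthinned counts per library and class were tested with edgeR 4.0.16 (TMM scaling, filterByExpr at a minimum count of 10, library as block), after a test on simulated data. Each class pair comes from the same library, which is where the pairing comes from. DESeq2 1.42.0 was an alternative. CPM are UMIs per 1000000 UMIs of the class. Per comparison, the up to 8 called members with the largest change in each direction were named, with the highest 8 and lowest 5 members, 7 set members and up to 4 called genes of each list, some of which are not reported here. Members named for their values in matched cells were chosen after those values were seen. Gene lengths and overlaps came from GENCODE M21. Protein sequences were not used here.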

Additional observations from a re-analysis of the deposited data

How the results depend on the processing

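Counts are of members called higher or lower, and medians are member log2 fold changes. Without the replicate block, 0 higher and 0 lower were called for the zone gates and for IgG, 5 higher for Myc, and 29 higher and 0 lower for G2/M. At an unadjusted p under 0.05, these fits gave 4 higher and 1 lower for the zone gates and 0 and 0 for IgG. DESeq2 called 1 higher and 1 lower for the zone gates, 1 and 0 for IgG, 2 higher for Myc, and 37 and 0 for G2/M. A mitochondrial limit of 10% gave 9 higher and 3 lower for the zone gates, 11 and 0 for IgG, 10 higher with a median of 0.22 for Myc, and a median of 0.34 for S. Sums of thinned counts gave 3 higher for the zone gates, 3 with 0.19 for Myc, 43 with 0.30 for S and 31 with 0.20 for G2/M. Matching on depth and mitochondrial share, chosen after seeing the data, gave 10 higher for the zone gates, 5 and 0 for IgG, 8 with 0.17 for Myc, 14 and 10 with 0.00786 for S, and 11 and 15 with a median of -0.0423, of reversed sign, for G2/M. At least 5000 UMIs gave a median of 0.33 for S, and 2 lower with 0.25 for G2/M. Another seed gave 7 higher with 0.17 for Myc and 2 lower for G2/M. Classes from unthinned counts gave 71 higher with 0.60 for Myc and medians of 0.60 for S and 0.48 for G2/M. Myc-detected cells so defined had median depths of 12505 and 14558 UMIs in libraries 1 and 2, against 6749 and 6465.5 in undetected ones. A gate of 2 UMIs gave 12 higher and 4 lower, and equal phase shares 2 lower for the zone gates and 7 lower for IgG. For IgG, 0 were called lower with no filter on low counts, 4 without the highest doublet scores, 1 without mitochondrially encoded UMIs, and 9 higher and 0 lower with 10 heavy chain UMIs and 90%.

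The small minus large subunit median was 0.07 for the zone gates, 0.02 for IgG, 0.01 for Myc, -0.02 for S and -0.03 for G2/M, and by position 0.00486 for IgG and -0.0482 for G2/M. Leaving out each library in turn gave 0.0117 to 0.0615 for the zone gates, -0.00334 to 0.0112 for IgG, -0.0523 to 0.0513 for Myc, -0.0125 to 0.0413 for S and -0.0239 to -0.0127 for G2/M. Median member log2 fold changes with 1 library were 0.03 to 0.11 for the zone gates, -0.03 to 0.05 for IgG, 0.24 to 0.31 for Myc, 0.38 to 0.49 for S and 0.28 to 0.34 for G2/M. Counts of calls could not be given with 1 library, which leaves no residual degrees of freedom. The cause of the changes was not tested. RLE size factors and leaving out cells with other lineages' markers kept every count within 1.5 times and every median's direction. The Myc comparison rests on 112 and 111 Myc-detected cells.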
